A study of Mus musculus with 6 samples.

Results

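Plasmacytoid dendritic cells (pDCs) were followed in single-cell RNA-seq of CD45+ cells sorted from livers of Balb/c mice carrying 4T07 metastases. A cell was taken as a pDC when the mean of its deposited scaled values of Siglech, Ccr9, Klk1 and Cox6a2 was above 2, so the members were chosen by measured expression. This gave 273 pDCs among 23008 cells, of which 15 came from Ctrl adjacent tissue, 17 from Tim3-KD adjacent tissue, 81 from Ctrl micrometastasis, 40 from Tim3-KD micrometastasis, 78 from Ctrl macrometastasis and 42 from Tim3-KD macrometastasis.

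4T07 is a mouse mammary carcinoma line, injected here into the heart of wild-type hosts. The injected cells carried either a scrambled short hairpin (Ctrl) or a short hairpin against Tim3 (Tim3-KD). The immune cells themselves were not modified in either group, so Havcr2, the gene of Tim3, does not check the knockdown in these libraries. Liver pieces were taken at day 3 (tumour-free adjacent tissue, AT, and micrometastasis) or at day 12 (macrometastasis), and each of the 6 libraries was a pool of 2 mice. The age and sex of the mice are not given in the sources used here. With 1 library per group no difference was tested against replicate spread: all intervals below are 95% intervals that cover counting error only, and site, day and library cannot be told apart in a comparison of micrometastasis with macrometastasis.

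pDCs are a dendritic cell lineage that senses viral and self nucleic acids in endosomes through Toll-like receptors and that can release large amounts of type I interferon. Their identity is held by the transcription factor Tcf4 (E2-2), which binds E-box motifs, together with Irf8, Spib, Runx2 and Bcl11a. In mouse tissue they are recognised by the surface proteins Siglec-H and Bst2, they leave the bone marrow in steady state and reach the gut through Ccr9, and they present antigen less efficiently than conventional dendritic cells (cDCs).

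The letters before the transcription starts of the rule genes are shown because the E-box is the motif of Tcf4, and Tcf4 was high in the selected cells. Each line gives the 250 bases before the start on the plus strand of GRCm38.p6, from RefSeq, with matches to the E-box CANNTG in capitals. Siglech lies at chr7:55767934-55768183, Ccr9 at chr9:123766961-123767210 and Klk1 at chr7:44225110-44225359. Cox6a2 is named only.
Siglech: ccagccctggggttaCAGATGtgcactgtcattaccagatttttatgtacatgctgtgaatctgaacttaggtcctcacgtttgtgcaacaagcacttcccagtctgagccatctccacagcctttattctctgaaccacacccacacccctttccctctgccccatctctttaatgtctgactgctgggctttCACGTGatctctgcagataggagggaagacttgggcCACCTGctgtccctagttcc
Ccr9: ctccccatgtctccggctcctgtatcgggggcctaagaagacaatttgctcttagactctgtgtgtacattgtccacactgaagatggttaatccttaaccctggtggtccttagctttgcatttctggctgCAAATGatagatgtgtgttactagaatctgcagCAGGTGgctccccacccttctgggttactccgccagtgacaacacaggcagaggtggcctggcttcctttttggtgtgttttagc
Klk1: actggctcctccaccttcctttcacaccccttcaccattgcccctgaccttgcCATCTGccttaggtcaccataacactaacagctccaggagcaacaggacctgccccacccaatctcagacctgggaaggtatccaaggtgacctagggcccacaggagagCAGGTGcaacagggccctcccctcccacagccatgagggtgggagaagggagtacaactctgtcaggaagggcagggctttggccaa
The Siglech window held CAGATG 235, CACGTG 56 and CACCTG 20 bases before the start, the Ccr9 window CAAATG 118 and CAGGTG 85 bases before it, and the Klk1 window CATCTG 197 and CAGGTG 87 bases before it. The E-box CAGGTG, read on either strand and itself one of the CANNTG matches, was present in all 3 windows and in 17.2% of 32851 promoters of the same length, while any CANNTG was present in 66.2% of them. The ETS-IRF composite motif (either strand) was in none of the 3 windows and in 2.30% of all promoters. A match of letters is a description and not a binding site.

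Libraries differed in depth and make-up. Summed over all cells they held 7086531 to 79971553 UMIs, the Tim3-KD AT library being the smallest with 542 cells, and the median pDC held 5670.5 to 19036 UMIs. Neutrophil-list cells made up 35.4% of Ctrl AT and 2.40% of Tim3-KD AT, B-list cells 11.9% of Ctrl micrometastasis and 1.26% of Tim3-KD micrometastasis, and 59 cell barcodes were shared between libraries, 2 of them on pDCs and none on pDCs of both libraries. A doublet score recomputed per library exceeded 0.15 in 14 of the 15 Ctrl AT pDCs against 5.82% of all Ctrl AT cells, while in the other 5 libraries 2 to 6 pDCs exceeded it. Ctrl AT values thus rest on cells of high doublet score, and the 2 AT libraries, with under 20 pDCs each, are given as levels only. Some joint features, which merge near-identical genes, were at 0 in a whole library (the joint Ly6c1/Ly6c2 feature in Ctrl AT and Ctrl micrometastasis, the joint Mif feature in Ctrl macrometastasis), and where such features are listed below among the highest or lowest ratios no difference is read from them.

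The rule separated the cells with few intermediate values. Of the 273 pDCs, 220 had UMIs of all 4 rule genes, 41 of 3, 11 of 2 and 1 of a single rule gene, whereas among the other cells 352 had UMIs of 1 rule gene, 21 of 2 and none of 3. The last cell outside and the first inside the cut-off had mean scaled values of 1.69 and 2.11 in AT, 1.97 and 2.22 in micrometastasis, and 1.97 and 2.35 in macrometastasis, and 87 cells lay between 1 and 2. Siglech, a sialic acid-binding lectin that signals through Dap12, was at 2483, 2147, 1526, 1299, 1538 and 1509.5 CPM in Ctrl AT, Tim3-KD AT, Ctrl micro, Tim3-KD micro, Ctrl macro and Tim3-KD macro (CPM are the UMIs of a gene summed over the pDCs of a library, per 1000000 of their summed UMIs, and this order of libraries is used throughout). It was at 0.144 to 1.63 CPM in the other cells. Ccr9, the receptor for Ccl25, was at 1225, 782, 624, 509, 568 and 538 CPM. The kallikrein Klk1 spanned 940.3 to 1444 CPM and the cytochrome c oxidase subunit Cox6a2 765 to 1327 CPM. The deposited scores were capped, and in Tim3-KD macrometastasis, for example, 18 of 42 pDCs were at the cap for Siglech and 21 of 42 for Klk1, so these levels are lower bounds that cannot be ranked between libraries or sites. Since these genes chose the cells, the levels describe the selection.

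The pDC label held for the genes that the rule did not use. Of 32 further pDC identity genes the matrices held 26, and 23 of the 26 were above all other cells in every library that held them. The exceptions were Irf7, Nrp1 and Il21r. Against the cells highest for the cDC lists 23 of the 26 were likewise above in every library that held them. These were not the same 23, since Irf7 was among them. As background, of the 5301 genes of the matrices 24.3% were above the other cells in every library that held them, 29.6% were above them in none, and 36.2% to 56.6% were above them in a given library. Cells chosen by 4 genes will also be high in the genes that go with them. The cDC-list cells rest on only 2 to 4 detected markers per list and are therefore called by their lists.

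Bst2 (tetherin), the target of the pDC antibody PDCA-1, lies at chr8:71534255-71537456 (minus strand, GRCm38, GENCODE annotation) and was at 4481, 3791, 4823, 3726, 4528 and 4418 CPM. In the other cells it was at 88.5 to 162 CPM and in the cDC-list cells at 165 to 238 CPM. At least 97.6% of the pDCs of each library had a Bst2 UMI, and the 6 levels lay within a narrow range. Tcf4 was at 1485, 1172, 1159.6, 931, 1225 and 1346 CPM, against 16.8 to 87.6 CPM in the other cells. Irf8, a factor shared with type 1 cDCs, was at 1998, 1829.9, 2342, 1917, 2146 and 2471 CPM, and the cDC-list cells held 409 to 852 CPM.

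The other lineage factors were all present. Spib, an Ets factor, spanned 159 to 287 CPM, Runx2, which governs pDC egress from the marrow, 316 to 677 CPM, and Bcl11a 144 to 398 CPM. Among genes with a restricted pattern, Pacsin1, an adaptor of endocytosis, was at 171 to 299 CPM and the beta-ureidopropionase Upb1 at 221 to 342 CPM, with at most 9.32 and 2.96 CPM in the other cells, both being lower bounds, with 17 of 81 Ctrl micrometastasis pDCs at the cap for Pacsin1 and 18 of 42 Tim3-KD macrometastasis pDCs for Upb1. The sodium pump subunit Atp1b1 spanned 225 to 458 CPM, and the phospholipid transfer protein gene Pltp 249 to 383 CPM. Il7r, the interleukin-7 receptor, was at 214 to 284 CPM in pDCs and at 5.45 to 72.8 CPM in the other cells.

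**Figure D1:**
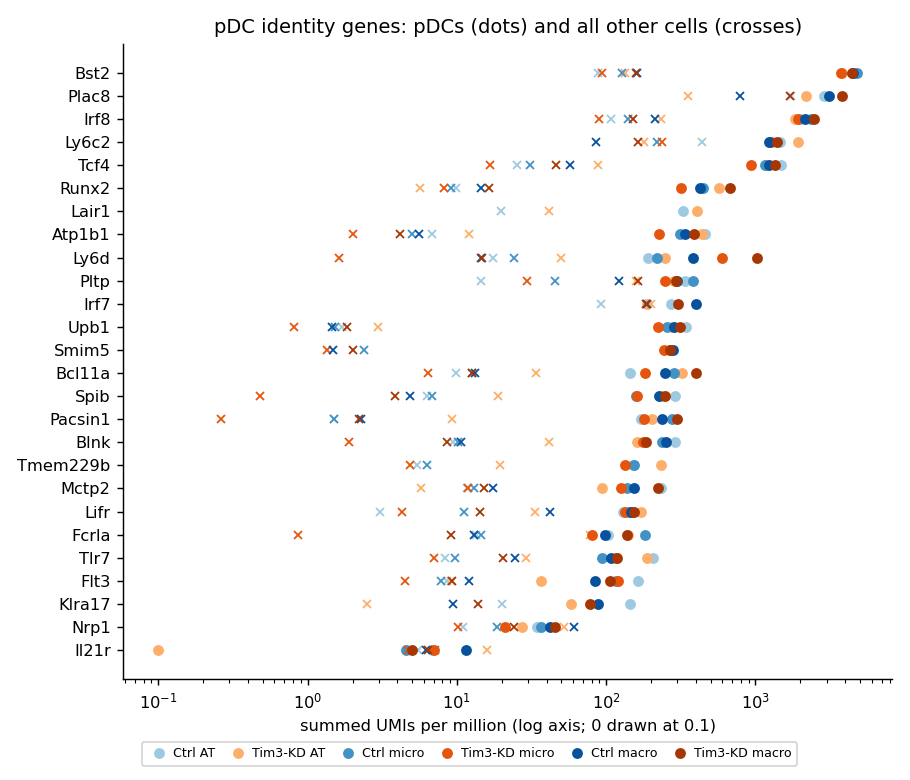
Level of 26 pDC identity genes that the rule did not use, in CPM on a log axis with 0 drawn at 0.1; dots are the pDCs of each of the 6 libraries and crosses all other cells of the same libraries. Dots sit above crosses in every library for 23 genes, from Bst2 at 3726 to 4823 CPM downwards, and overlap them for Irf7, Nrp1 and Il21r.

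The sensing arm was measured in part. Tlr7, the endosomal receptor for single-stranded RNA, was at 205, 189, 93.1, 116, 108 and 118 CPM, against 7.01 to 29.2 CPM in the other cells. Irf7, the factor that drives type I interferon transcription, was at 274 and 189 CPM in AT and 400.1 and 304 CPM in macrometastasis, with 92.7 to 199 CPM in the other cells, so the groups met in Tim3-KD AT. Slc15a4, a lysosomal transporter needed for endosomal signalling, was held for AT only, at 103 and 88.3 CPM. Only 4 of the 15 genes of the sensing list were among the variable genes of the matrices, and Tlr9 and the type I interferon genes were not analysed here.

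Of 45 interferon-stimulated genes 39 were held, and 5 were above and 15 below the other cells in every library holding them, where all matrix genes gave 24.3% and 29.6%. Ifi27l2a, an interferon-inducible mitochondrial protein gene, was at 1402, 941, 1581, 1405, 1689.9 and 1751 CPM, and Ifi44 at 123, 113, 114, 140.5, 169 and 103 CPM. Isg15, a ubiquitin-like modifier, was at 328, 0, 113, 70.2, 215 and 111 CPM. The high Isg15 values came from single cells: 1 pDC held 87.5% of the Isg15 UMIs of Ctrl AT and 1 held 66.4% of those of Ctrl macrometastasis. Rsad2 (viperin) reached 108 CPM in Ctrl macrometastasis, with 97.3% of the UMIs in 1 cell, and lay between 0 and 34.2 CPM elsewhere.

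pDCs carried class II antigen presentation genes at levels below those of the cDC-list cells. Of 20 genes of presentation and costimulation 19 were held, and 13 were below the cDC-list cells in all libraries, while 43.9% to 55.8% of all matrix genes were above them in a given library and 24.3% were above them in none. H2-Aa, the alpha chain of the class II molecule I-A (chr17:34282744-34287823, minus strand), was at 1799, 1918, 1699.7, 1103, 2165 and 1255 CPM, against 3427 to 6796 CPM in the cDC-list cells and at most 93.1 CPM in neutrophil-list cells. Its counting intervals ran from 984 to 1232 CPM in Tim3-KD micrometastasis, the lowest library, and from 2057 to 2278 CPM in Ctrl macrometastasis, the highest. H2-Ab1, its beta chain (chr17:34257689-34269419, plus strand), was at 1279, 1364, 1067, 583, 1489 and 715 CPM. In both metastasis sites the Tim3-KD library was the lower of the pair for both genes. Costimulation was hardly detected: over all pDCs there were 3 UMIs of Cd80 and 19 of Cd40, and 8 of Cd86 in AT, where it was held. Ciita, the class II transactivator, had 24 UMIs.

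The outstanding secreted factor was Ccl4 (MIP-1 beta), a chemokine that attracts monocytes and T cells (chr11:83662584-83664683, plus strand). It was at 1197, 3322, 3166, 1654, 2905 and 3223 CPM in pDCs, against 260 to 542 CPM in the other cells and 267 to 1069 CPM in the cDC-list cells. A Ccl4 UMI was found in 75.0% to 94.1% of pDCs. After thinning every cell to 1500 UMIs this share was 40% to 77.8%, and at most 15.1% of neutrophil-list cells had one, so the pDC share was above that background in every library. Il12a, the p35 chain of interleukin-12 and interleukin-35 (chr3:68690644-68698547, plus strand), was at 95.8, 134, 67.1, 176, 73.7 and 103 CPM, with 0 to 13.6 CPM in the cDC-list cells and 25.02 to 62.3 CPM in the B-list cells. Its thinned share was 7.41% to 30.0% in pDCs, at most 6.81% in neutrophil-list cells and 2.69% to 9.46% in B-list cells. In Ctrl micrometastasis, where the pDC share was lowest, it was 7.41% in pDCs, 1.96% in neutrophil-list cells and 8.06% in B-list cells. Il12b, the partner chain, is not analysed here.

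Most pDCs had Ccl4, and most of those with Il12a had it too. In the 6 libraries 8, 8, 27, 15, 25 and 17 pDCs had UMIs of both genes, 5, 8, 44, 15, 42 and 20 of Ccl4 alone, and 0, 1, 3, 7, 3 and 2 of Il12a alone. Ccl3, a related chemokine, ranged from 27.4 to 521 CPM, with 30.2% to 75.0% of its UMIs in 1 cell per library. Tnf was at 144, 30.4, 90.0, 56.2, 110 and 35.2 CPM. Ifng had 2 UMIs over all pDCs, Il6 5 and Il10 5.

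**Figure D2:**
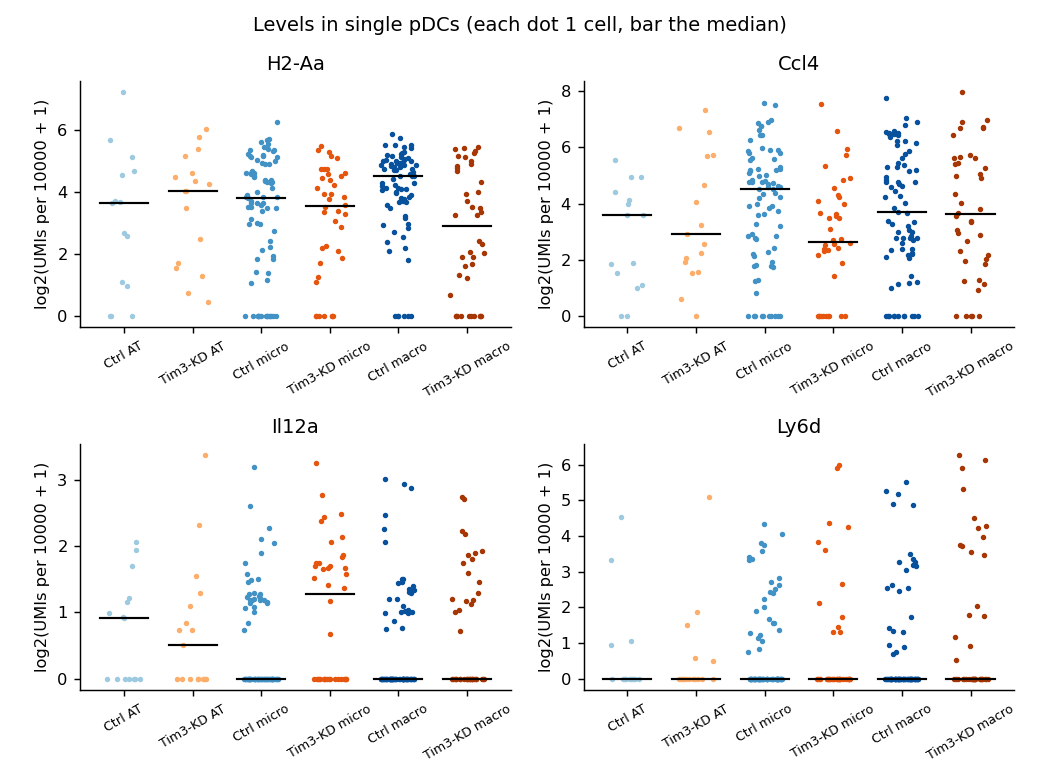
Level of H2-Aa, Ccl4, Il12a and Ly6d in every single pDC, as log2 of UMIs per 10000 plus 1, by library; each dot is 1 pDC and the bar the median. H2-Aa medians in UMIs per 10000 are 21.7 in Ctrl and 6.45 in Tim3-KD macrometastasis, Ccl4 medians are 22.0 in Ctrl and 5.22 in Tim3-KD micrometastasis, and Ly6d is at 0 in the median pDC of every library.

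Homing receptors ranged from high to nearly absent in pDCs. Cd69, an early activation antigen that also retains cells in tissue, spanned 353 to 677 CPM against 42.9 to 209 CPM in the other cells. Ccr2, the Ccl2 receptor of marrow egress, spanned 197 to 332 CPM and was below the other cells in Ctrl micrometastasis (214 against 219 CPM), and Cxcr3 spanned 45.6 to 85.5 CPM. Itgb7, an integrin subunit of gut homing, was at 94.8 to 181 CPM where it was held. S1pr1, the receptor of lymphocyte egress, was at 0 to 20.2 CPM against 50.5 to 119 CPM in the B-list cells, Ccr7, the receptor for lymph node entry, at 3.04 to 51.9 against 200.2 to 554 CPM, and Cx3cr1, the fractalkine receptor, at 0 to 47.9 CPM. Of the 15 receptors of the list 11 were held, 6 of them (Ccr9, which the rule used, included) were above the other cells in every library, and none was below them in every library, against 24.3% and 29.6% of all matrix genes.

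Of the inhibitory and activating receptors Havcr2 was nearly absent, with 14 UMIs over all 273 pDCs. Its level was 2.52 to 10.5 CPM, against 29.2 to 64.6 CPM in the cDC-list cells. Siglecg, an inhibitory lectin shared with B cells, was at 34.2, 12.2, 76.3, 17.6, 78.0 and 52.8 CPM. Lair1, a collagen receptor, was held for AT only, at 328 and 408 CPM. Klrd1 (CD94), counted in the transitional dendritic cell list, was at 147 to 253 CPM.

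Of 8 lysosomal and secretory genes held, 3 were above the other cells in every library (Ctsl, Grn and Klk1, which the rule used) and 2 below them (Ctsc and Gzmb), against 24.3% and 29.6% of all matrix genes, so that the count says nothing particular of the list. Cathepsin L (Ctsl) was at 1197 to 1489 CPM against 130.3 to 549 CPM in the other cells, and progranulin (Grn) at 758 to 1314 CPM. Cathepsin C (Ctsc) was at 91.3 to 197 CPM against 203 to 340 CPM. Cathepsin B (Ctsb) was at 1177, 1160, 1027, 931, 1067 and 971 CPM, against 275, 1646, 609, 373, 1359 and 1404 CPM in the other cells. Ctsb was thus above them in Ctrl AT and both micrometastasis libraries and below them elsewhere. Cst3, an inhibitor of cysteine proteases, was at 1297 to 1806 CPM and so within the range of the other cells. Granzyme B had 12 UMIs over all pDCs, 11 of them in 1 cell.

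A subset of pDCs was rich in Ly6d, a lymphoid surface marker that in marrow marks progenitors with B and pDC potential. Ly6d (chr15:74762056-74763620, minus strand) was at 192, 247, 220, 600.5, 381 and 1029 CPM, and 11, 12, 54, 28, 54 and 24 pDCs of the 6 libraries had no Ly6d UMI. pDCs with 5 or more Ly6d UMIs numbered 1, 2, 11, 6, 12 and 13, or 6.67%, 11.8%, 13.6%, 15%, 15.4% and 31.0%. The richest single pDC held 21, 68, 30, 90, 73 and 133 Ly6d UMIs, which was 75.0%, 84.0%, 20.8%, 52.6%, 27.7% and 32.5% of the library's sum. The level thus rested on few cells, and the share of pDCs with 5 or more UMIs was highest in Tim3-KD macrometastasis.

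Few pDCs carried proliferation genes. By 2 or more UMIs of 2 or more proliferation genes 2, 5, 3, 4, 2 and 2 pDCs were marked (13.3%, 29.4%, 3.70%, 10.0%, 2.56% and 4.76%), against 26.0%, 21%, 13.6%, 33.0%, 6.43% and 12.0% of the other cells. Without the tubulin genes 0, 0, 2, 4, 2 and 2 pDCs remained marked, so the AT values rested on tubulins.

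Markers of other cell types were found in pDCs too. By 2 or more UMIs of each of 2 or more genes of a list, 2, 4, 17, 5, 23 and 5 pDCs (56 in all) were marked for at least 1 of 9 lists: B, T, NK or ILC1, neutrophil, neutrophil precursor, Kupffer, basophil or mast cell, endothelial and hepatocyte. These are the pDCs called marked for another type below. The cDC2 list marked 22 pDCs, the plasma cell list 13 (7 of them in Tim3-KD AT), the cDC1 list 1 and the monocyte list 131, and these 4 lists were not counted. Marks of the B list (Cd79a, Cd79b, Ms4a1 and 5 others) were in 0, 0, 12, 2, 13 and 2 pDCs, and the summed level of the list was 13.7 to 671 CPM. The B-marked pDCs of Ctrl micrometastasis had 939 CPM of Cd79a, a median of 12144.5 UMIs and 2732 CPM of H2-Aa, while the pDCs there without marks of the 9 lists had no Cd79a UMI, a median of 7263.5 UMIs and 1438 CPM of H2-Aa. Neutrophil precursor genes summed to 804 CPM in Tim3-KD micrometastasis and 3.04 to 68.7 CPM elsewhere, and 114 of the 129 Prtn3 UMIs were in 1 pDC. The Kupffer list was at 6.84 to 73.1 CPM with no pDC marked, and the basophil and mast cell list at 0 to 3.51 CPM. The monocyte list summed to 1477 to 2217 CPM and marked pDCs through Ly6c2 and Ccr2, which pDCs share, Ly6c2 being uncertain next to its near-identical neighbour Ly6c1.

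pDCs made up about 1 in 100 of the sorted cells, and in both metastasis sites the share was lower in the Tim3-KD library. They were 0.832% (0.466 to 1.37) of Ctrl AT, 3.14% (1.84 to 4.97) of Tim3-KD AT, 1.59% (1.26 to 1.97) of Ctrl micrometastasis, 0.778% (0.556 to 1.06) of Tim3-KD micrometastasis, 1.59% (1.26 to 1.98) of Ctrl macrometastasis and 0.763% (0.551 to 1.03) of Tim3-KD macrometastasis, each with its exact Clopper-Pearson interval. Tim3-KD minus Ctrl was -0.808 percentage points in micrometastasis (-1.24 to -0.392, Newcombe interval) and -0.824 in macrometastasis (-1.26 to -0.413), a ratio of 0.490 (0.327 to 0.725) and 0.481 (0.322 to 0.708). In AT the difference had the other sign, 2.30 points (1.02 to 4.16). The Ctrl macrometastasis and micrometastasis shares differed by 0.00126 points (-0.492 to 0.498).

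The share depends on which other cells were in the sort. With neutrophil-list and neutrophil precursor-list cells left out, Tim3-KD minus Ctrl was -0.859 points (-1.54 to -0.168) in micrometastasis, -1.0 (-1.62 to -0.401) in macrometastasis and 1.74 (0.222 to 3.70) in AT. With the 217 pDCs that carried no marks of the 9 lists, it was -0.573 (-0.966 to -0.194), -0.447 (-0.829 to -0.0854) and 1.68 (0.563 to 3.37). Ctrl micrometastasis minus Ctrl AT was 0.754 points (0.136 to 1.26), but 0.856 (-0.187 to 1.66) without neutrophil-list and precursor-list cells, 0.532 (-0.0438 to 0.988) without marked pDCs and 1.46 (1.05 to 1.84) over cells with a doublet score of at most 0.15, since only 1 of the 15 Ctrl AT pDCs was kept. The part of the changing make-up of the libraries in these shares was not tested.

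**Figure D3:**
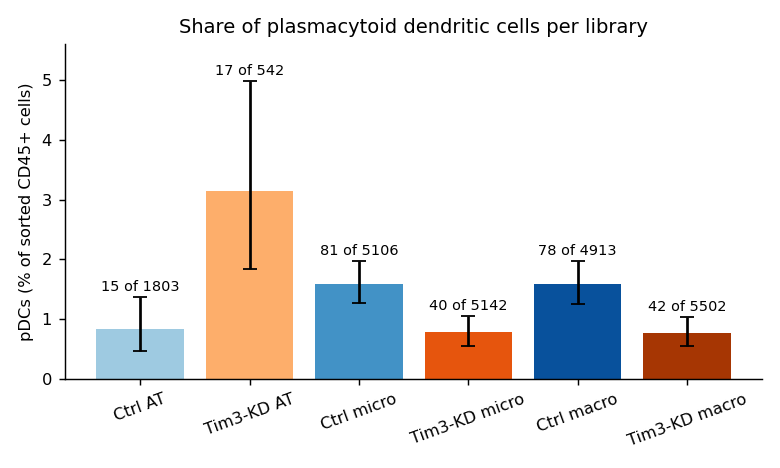
Share of pDCs among the sorted CD45+ cells of each library in percent, with exact 95% intervals for counting error. The Ctrl shares at both metastasis sites are 1.59% and the Tim3-KD shares 0.778% and 0.763%, while Tim3-KD AT is highest at 3.14%.

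Gene levels within pDCs were then compared between libraries. A gene was called when its CPM ratio was at least 2 or at most 0.5 with at least 20 UMIs over both libraries, which says nothing of replicate spread, and a gene passing 20 UMIs through 1 library alone is bound to be called. The question was whether pDCs differ between livers with Ctrl and Tim3-KD lesions. In micrometastasis 1148 genes were tested, of which 5.23% were called higher and 14.2% lower in Tim3-KD. In macrometastasis the values were 5.99% and 15.3% of 1002 genes. The counting interval left out 1 for 48 of the 60 higher and 88 of the 163 lower calls of micrometastasis, and for 76.7% of the higher and 66.7% of the lower calls of macrometastasis. Over the same genes, 0.958% were past the fold upwards and 16.4% downwards in the other cells of micrometastasis, and 3.09% and 3.29% in those of macrometastasis. The median ratio over all tested genes was 0.837 and 0.90, and after scaling to the trimmed mean of ratios 89 genes were called higher and 118 lower in micrometastasis, in place of 60 and 163. In macrometastasis the counts became 79 and 127, in place of 60 and 153. The macrometastasis and micrometastasis pairs share no library.

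Few genes of the pDC programme passed the call between Ctrl and Tim3-KD. In micrometastasis 1 of 21 tested identity genes was called higher (Ly6d) and 1 lower (Fcrla, at 0.445, but 0.527 and 0.531 in 2 alternatives), with a median ratio of 0.819, and in macrometastasis 1 of 23 was called higher (Ly6d) and none lower, with a median of 1.11. The counting interval lay below 1 for 9 of the 21 and above it for 1 in micrometastasis, and above 1 for 7 of the 23 and below it for 2 in macrometastasis. The ratios of Bst2 were 0.772 (0.720 to 0.828) and 0.976 (0.920 to 1.03), those of Tcf4 0.802 (0.695 to 0.924) and 1.10 (0.984 to 1.23). In micrometastasis Runx2 was at 0.709 (0.554 to 0.901) and Bcl11a at 0.643 (0.464 to 0.879). In macrometastasis they were at 1.59 (1.35 to 1.89) and 1.61 (1.29 to 2.01). Both factors were thus below the Ctrl level at the first site and above it at the second, without being called at either, and the difference between sites was not tested.

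Ly6d was called higher in Tim3-KD at both sites. The micrometastasis ratio was 2.73 (2.18 to 3.44), but 1.27 over pDCs with a doublet score of at most 0.15, and the macrometastasis ratio 2.7 (2.31 to 3.16), but 1.94 without the pDC of most UMIs in each library. In the other alternatives the call was kept. In micrometastasis the share of pDCs with 5 or more UMIs was nearly the same (13.6% and 15%) and 1 Tim3-KD pDC held 52.6% of the UMIs, whereas in macrometastasis 12 of 78 and 13 of 42 pDCs had 5 or more. In the other cells the ratio was 0.0680 and 1.01.

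Class II genes were below the Ctrl level at both sites. In micrometastasis H2-Aa was at a ratio of 0.649 (0.570 to 0.736), H2-Ab1 at 0.547 (0.459 to 0.648) and H2-Eb1 at 0.525 (0.418 to 0.653), and in macrometastasis at 0.580 (0.523 to 0.642), 0.480 (0.419 to 0.548) and 0.536 (0.451 to 0.633). All 6 intervals lay below 1, but only H2-Ab1 in macrometastasis passed the call, and in 3 alternatives it ended at 0.505 to 0.536. Of 10 presentation genes tested in micrometastasis 2 were called lower (H2-DMb2 and Cd83) and none higher, with a median of 0.546, and of 9 in macrometastasis 2 were called lower (H2-Ab1 and Cd83) and none higher, with a median of 0.581. Cd83, which stabilises class II on the surface, was at 0.406 (0.139 to 0.979), or 0.636 over pDCs with a doublet score of at most 0.15, and at 0.371 (0.167 to 0.743).

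The other cells of the same libraries showed low class II ratios too. There H2-Aa was at 0.193 in micrometastasis, where B-list cells were 11.9% of Ctrl and 1.26% of Tim3-KD, and at 0.511 in macrometastasis, where they were 11.1% and 8.40%. B-marked pDCs numbered 12 and 2 in micrometastasis and 13 and 2 in macrometastasis. Without pDCs marked for another type the H2-Aa, H2-Ab1 and H2-Eb1 ratios were 0.810, 0.663 and 0.730 in micrometastasis and 0.572, 0.491 and 0.510 in macrometastasis. In micrometastasis the list median then became 0.767 with none of 8 genes called, and H2-DMb2 moved from 0.256 to 0.804.

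**Figure D4:**
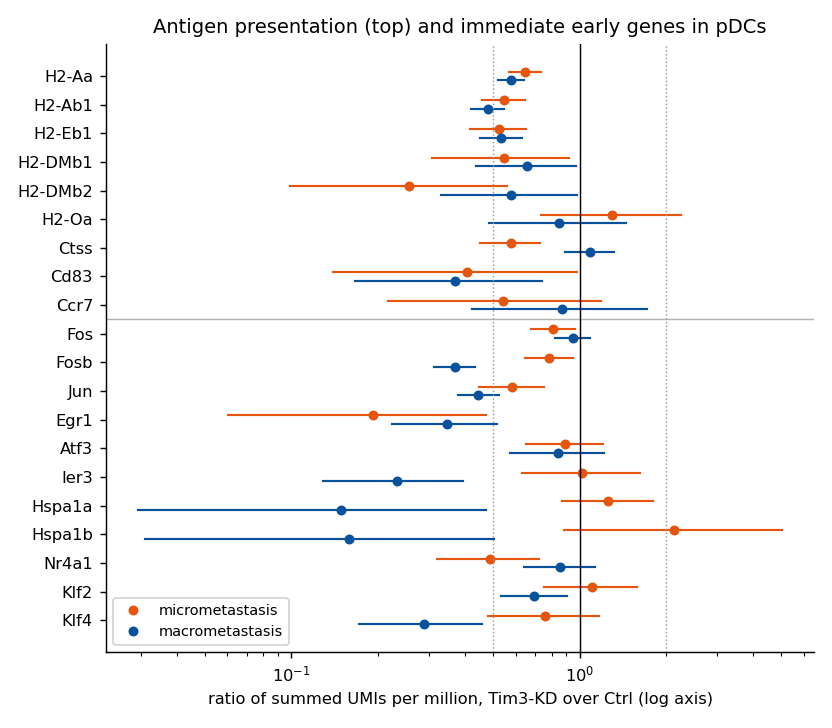
Ratio of the level in Tim3-KD to that in Ctrl pDCs for 9 antigen presentation and 11 immediate early genes at both metastasis sites, on a log axis, with 95% intervals for counting error and dotted lines at 0.5 and 2. H2-Aa, H2-Ab1 and H2-Eb1 lie below 1 at both sites (0.480 to 0.649), while Fosb, Ier3 and Klf4 lie below 0.5 in macrometastasis only, Ier3 being at 0.582 without 1 Ctrl pDC.

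Chemokine and cytokine genes differed in single cases. In micrometastasis Il12a was called higher, at 2.62 (1.71 to 4.01), with 2.20 to 3.10 over the alternatives and 0.889 in the other cells, and an Il12a UMI was found in 55.0% of Tim3-KD and 37.0% of Ctrl pDCs. In macrometastasis its ratio was 1.40 (0.905 to 2.15). Ccl4 was at 0.522 (0.472 to 0.578) in micrometastasis, just short of the call, with 0.446 to 0.619 over the alternatives and 0.480 in the other cells, and at 1.11 (1.03 to 1.19) in macrometastasis. Il1b, called lower in micrometastasis at 0.123 (0.0443 to 0.277), was at 0.344 in the other cells, and at 3967 and 1440 CPM in the neutrophil-list cells of Ctrl and Tim3-KD micrometastasis.

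In macrometastasis 6 of 10 chemokine and cytokine genes were called lower (Ccl5, Ccl6, Ccl9, Cxcl9, Cxcl10 and Tnf) and none higher, with a median of 0.189, but 1 Ctrl pDC held all 49 Cxcl9 UMIs and all 95 Cxcl10 UMIs. Without that pDC 3 of 7 were called lower (Ccl6, Ccl9 and Tnf) and the median was 0.660, but 76 of the 100 Ccl6 UMIs and 27 of the 31 Ccl9 UMIs of Ctrl were in 1 other pDC. Tnf was spread over cells, with at most 11 of its 76 Ctrl UMIs in 1 pDC. It was at 0.321 (0.168 to 0.572), with 0.300 to 0.358 over the alternatives and 0.526 in the other cells. The interferon-stimulated genes behaved in the same way: 2 of 17 were called higher (Slfn1 and Slfn5) and 6 lower, with a median of 0.530, whereas without the same pDC 2 of 12 were called higher and none lower, with a median of 1.05. In micrometastasis none of 12 was called higher and 1 lower, with a median of 0.958.

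Of 11 immediate early and stress genes tested in macrometastasis, 7 were called lower (Fosb, Jun, Egr1, Ier3, Klf4, Hspa1a and Hspa1b) and none higher, with a median of 0.369, and over the alternatives 5 to 8 were called lower with a median of 0.361 to 0.464. Of the 120 Ier3 UMIs of Ctrl 73 were in 1 pDC, the one that held most Ccl6 and Ccl9 UMIs, and without it Ier3 was at 0.582 and no longer called, 6 of 11 were called lower and the median was 0.461. Hspa1a and Hspa1b are near-identical copies that can share reads, so their separate values are uncertain. Fosb was at 794, 554, 648, 509, 1186 and 438 CPM, so that Ctrl macrometastasis was the highest library and Tim3-KD macrometastasis the lowest, a ratio of 0.369 (0.312 to 0.435). Jun was at 212, 846, 456, 267, 1072 and 478 CPM, a ratio of 0.446 (0.378 to 0.524). Egr1 was at 68.4, 6.09, 91.5, 17.6, 211 and 73.0 CPM, a ratio of 0.346 (0.224 to 0.518). Taken as the mean over cells Jun was at 0.511 and no longer called. Fos (0.946), Atf3 (0.842), Nr4a1 (0.854) and Klf2 (0.697) were not called.

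In the other cells of macrometastasis the ratios were 0.565 for Fosb, 0.458 for Jun, 0.632 for Egr1, 1.14 for Ier3 and 0.563 for Klf4. These genes are known to be induced within minutes by receptor signalling and by tissue dissociation, and the part of either was not tested. In micrometastasis 1 of 15 was called higher (Hspa1b) and 2 lower (Egr1 at 0.192, 0.0601 to 0.473, and Nr4a1 at 0.489, 0.320 to 0.724), with a median of 0.805, and in 2 alternatives the Nr4a1 call ended at 0.506 and 0.579. The other cells of Ctrl and Tim3-KD micrometastasis held 270 and 149 CPM of Egr1 and 290 and 127 CPM of Nr4a1. Of Hspa1b they held 20.0 and 13.3 CPM.

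Few homing receptors passed the call. None of 8 was called in micrometastasis (median 0.704, 2 intervals below 1) and 1 of 9, S1pr4, was called lower in macrometastasis (median 1.05, 3 intervals above 1 and 1 below), but in 3 alternatives S1pr4 was at 0.503 to 0.747 and not called. Cxcr4, the Cxcl12 receptor, was at 0.742 (0.425 to 1.25) and 1.79 (1.27 to 2.53). Of the lysosomal and secretory genes none of 7 was called in micrometastasis and 1 of 7, Serpinb6b, was called lower in macrometastasis, at 0.469, but in 5 alternatives, the highest at 0.613, it was no longer called. Of 4 inhibitory and activating receptors Siglecg was called lower in micrometastasis, at 0.230 (0.0716 to 0.574) with 0.306 in the other cells, and Fcgr2b higher in macrometastasis, on 28 UMIs and with 1.57 over pDCs with a doublet score of at most 0.15.

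Of 4 genes tested of transitional dendritic cells, which lie between pDCs and cDC2s, 2 were called lower in Tim3-KD micrometastasis. Cd209a (DC-SIGN) was at 157, 228, 125 and 21.1 CPM in the AT and micrometastasis libraries, a micrometastasis ratio of 0.168 (0.0601 to 0.382), with 0.168 to 0.211 over the alternatives and 0.298 in the other cells. Itgax (CD11c) was at 0.288 (0.0739 to 0.811), while the other cells held 10.2 CPM of it in Ctrl and 2.36 CPM in Tim3-KD micrometastasis. Klrd1 was at 0.976 (0.664 to 1.41) and Cd8a at 0.544 (0.273 to 1.01), neither being called. The cDC2 list, which holds Cd209a, marked 13 of 81 Ctrl and 2 of 40 Tim3-KD micrometastasis pDCs. The part of these pDCs in the calls was not tested. In macrometastasis 1 was called higher (Itgax, at 2.14, 0.967 to 4.84) and 1 lower (Cd9).

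Most proliferation calls of macrometastasis rested on single cells. There 7 of 10 were called higher, with a median of 2.56, but without the pDC of most UMIs in each library 1 of 9 was called higher (Pclaf, at 2.79, which was called in every alternative) and 4 lower, with a median of 0.817. In micrometastasis 4 of 9 were called higher (Stmn1, Pclaf, Rrm2 and Tyms) and 2 lower, with a median of 1.29, and without pDCs marked for another type 1 of 7 was called higher and 3 lower. These calls were less bound to 1 cell, the richest Tim3-KD pDC holding 33 of 95 Stmn1, 16 of 53 Pclaf, 9 of 19 Rrm2 and 7 of 14 Tyms UMIs. Stmn1 and Rrm2 stayed called in every alternative that gave a value, while Pclaf ended in 3, at 1.39 to 1.77, and Tyms in 1, at 1.94.

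The largest ratios rested mostly on 1 pDC each or on joint features. In micrometastasis the highest were the joint Ly6c1/Ly6c2 feature, F13a1, Prtn3, Elane and Ctsg, of which 18 of 21, 114 of 129, 36 of 41 and 19 of 25 UMIs of the last 4 came from 1 Tim3-KD pDC each. The lowest were B3gnt2, a polylactosamine synthase, with 0 UMIs against 36 in 25 Ctrl pDCs and so at least 5.21-fold lower with a floor of 3 counts, and 4 joint features of Eif4a1 and of histone H2A genes, 3 of which were at 0 in the whole Tim3-KD library. Among the other cells, those of the Ctrl library held 21.7 CPM of B3gnt2 and those of the Tim3-KD library 0.527 CPM. In macrometastasis the highest were the joint Mif feature, Trbc1, Pclaf, Stmn1 and Mki67, with 19 of 24 UMIs of Trbc1, 40 of 55 of Pclaf and 21 of 29 of Mki67 in 1 pDC each, as were 70 Stmn1 UMIs. The lowest were Ccl5, Ccl6, Cxcl9, Gbp2b and Hmga1, of which Hmga1, a chromatin protein, was spread over 22 Ctrl pDCs with 33 UMIs, at least 6.32-fold lower in Tim3-KD, while the other cells held 53.0 CPM of it in the Ctrl library and 4.16 CPM in the Tim3-KD library.

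Some genes were called the same way at both sites. Of 617 genes tested at both sites, 34 (5.51%) were called higher in micrometastasis and 28 (4.54%) in macrometastasis, and 9 in both (26.5% and 32.1% of those called): Cmc2, Dut, H1f5, Ly6d, Pclaf, Rps4l, S100a4, Stmn1 and Tmem176b. Called lower were 88 (14.3%) and 70 (11.3%), and 22 in both (25% and 31.4% of those called), with Cd14, the coreceptor of lipopolysaccharide, at 0.378 (0.187 to 0.702) and 0.284 (0.156 to 0.485) and the atypical chemokine receptor Ccrl2 at 0.0807 (0.00955 to 0.305) and 0.268 (0.176 to 0.395). The 22 also held Cd83, Egr1 and Ltb, and the B-lineage genes Ebf1, Iglc1, Iglc2 and Ralgps2. Counted among the 22 were joint features of histone H2A genes, from which no difference is read. These included a feature at 0 in the whole Tim3-KD micrometastasis library. For some of the 22 the interval included 1 at a site, such as Akap8l in macrometastasis (0.184 to 1.04). In micrometastasis it did so for Cstdc4 (0.0274 to 1.004) and Gadd45g (0.0288 to 1.07). Cd14, Ccrl2, Iglc1 and the other genes of this paragraph were picked out after their values were seen.

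The Ctrl libraries of both sites were compared last, over the 908 genes tested, of which 11.7% were called higher and 3.41% lower in macrometastasis than in micrometastasis (median ratio 1.07). After scaling to the trimmed mean 81 genes were called higher and 43 lower, in place of 106 and 31. The comparison shares its libraries with the Tim3-KD comparisons above. None of 20 identity genes was called (median 1.04), nor any of 9 presentation or 9 homing genes (medians 1.22 and 1.07). H2-Aa was at 1.27 (1.18 to 1.38), with 1.38 in the other cells, and Ccr2 at 1.48 (1.19 to 1.84), with 0.379 in the other cells.

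Immediate early genes were called higher in Ctrl macrometastasis in 4 of 12 cases (Jun, Egr1, Klf2 and Hspa1b) and lower in 1 (Hspa1a), with a median of 1.58. Without the pDC that held most Ier3 UMIs 4 were called higher and 2 lower, with a median of 1.19. Jun was at 2.35 (2.05 to 2.7), with 3.13 in the other cells, Egr1 at 2.30 (1.69 to 3.17), with 2.31, and Klf2 at 2.11 (1.65 to 2.73), or 1.95 after scaling to the trimmed mean, with 3.08. Hspa1a was at 0.368 (0.242 to 0.550) but at 8.47 without pDCs marked for another type. Of 20 interferon-stimulated genes 8 were called higher and none lower, with a median of 1.72, and without the pDC that held all Cxcl9 UMIs 1 of 13 was called higher, with a median of 0.941. Likewise 4 of 10 chemokine and cytokine genes were called higher (median 1.45), and without that pDC 2 of 8 were called higher and 1 lower. Itgax was called lower, at 0.385 (0.185 to 0.753). Of 9 proliferation genes 2 were called higher and 3 lower, and without the pDC of most UMIs 5 were called higher and 1 lower. The highest ratios were those of the joint Ly6c1/Ly6c2 feature, Cxcl9, Saa3, Cxcl10 and Serpina3g, of which the last 4 had most of their UMIs in 1 pDC, and the lowest those of Nkg7, Trbc1, Pclaf, Rab30 and Vpreb3.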

How the data were processed

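CD45+ liver cells were sequenced with the 10x 3' v3.1 chemistry. The authors trimmed the reads (Trim Galore 0.4.3), aligned them with STAR 2.7.7a to GRCm38, counted UMIs over exons and introns, removed low-quality cells and scrublet doublets, and deposited 3 matrices (1 per site) of scaled scores. The scaling step is not given in the sources used here. The deposited scores had mean 0 and unit variance per gene over both libraries of a site, were capped at 10 and covered 4486, 2669 and 2643 variable genes, which hold 14.7%, 11.3% and 13.1% of the UMIs. UMIs and cell totals were recovered by undoing the total regression and the log of UMIs per 10000 (at least 99.9965% of values whole within 0.05), values at the cap being lower bounds. Recovery was checked on simulated data. UMIs were summed over members per library, as CPM with exact Poisson, binomial and conditional binomial intervals and Newcombe intervals for shares (Python 3.11.15, NumPy 2.4.6, SciPy 1.17.1, pandas 2.3.3). Other cells were given to the marker list of highest mean score, if above 0.5. Doublet scores were recomputed in the manner of scrublet (scikit-learn 1.9.0). A gene was named if on a role list, or among the 5 highest and 5 lowest ratios whose interval left out 1. The members, lists and alternatives were chosen with earlier results of these data known, and 5 alternatives were added after seeing the data. Libraries held 7086531 to 79971553 UMIs. Values of a few list genes are not reported here.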

Additional observations from a re-analysis of the deposited data

Results flagged for a closer look

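The share of pDCs differed between Tim3-KD and Ctrl with one sign in adjacent tissue (2.30 percentage points) and the other in micrometastasis (-0.808) and macrometastasis (-0.824). Each value compares 1 library with 1 library, and the difference between sites was not tested. Adjacent tissue rested on 32 pDCs, of which 14 of the 15 in Ctrl had a doublet score over 0.15.

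Of the 617 genes tested at both metastasis sites 7 were called in opposite directions in Tim3-KD against Ctrl, and 3 of them were list genes. Their log2 ratios were those of Birc5 (-1.44 in micrometastasis and 1.06 in macrometastasis), Hspa1b (1.09 and -2.66) and Itgax (-1.80 and 1.10). Genes with ratios on opposite sides of 1 that were not called at both sites, such as Runx2, Bcl11a, Tcf4, Ccl4 and Cxcr4, are not counted here. These 3 rested on 25 to 66 UMIs per comparison, and the difference between sites was not tested. For each of the 3 the counting interval included 1 at 1 site, in micrometastasis for Birc5 and Hspa1b and in macrometastasis for Itgax. All 13 Hspa1b UMIs of Ctrl micrometastasis were in 1 pDC. The macrometastasis value of Birc5 changed sign without the pDC of most UMIs in each library.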

How the results depend on the processing

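No paired analysis was possible because each group is 1 library. The 5 share differences and 6 counts of called genes were recomputed 128 times, and 113 of these values stayed within their limits. The share difference between Ctrl micrometastasis and Ctrl adjacent tissue moved to 1.46 points over cells with a doublet score of at most 0.15. With at least 50 UMIs 15 genes were called higher and 47 lower in micrometastasis, 15 and 46 in macrometastasis, and 40 and 5 between the Ctrl sites. With no minimum and 0.5 added these counts were 333 and 445, 289 and 506, and 360 and 168. Without pDCs marked for another type, an alternative added after seeing the data, 30 were called higher and 112 lower of 820 tested in micrometastasis, and 44 and 101 of 709 in macrometastasis, where the share called lower was 14.2%, against 15.3%. Of the list genes called, 19, 35 and 22 in the 3 comparisons, 1, 4 and 1 had no log ratio because a library held no UMI. Of the others, 10 of 18 in micrometastasis, 15 of 31 in macrometastasis and 13 of 21 between the Ctrl sites kept their call in every alternative that gave a value. Of 3272 recomputed values of single genes 7 changed sign, the cause not being tested: as log2 ratios in macrometastasis without the pDC of most UMIs, Birc5 (-1.21), Cdca8 (-0.29), Cenpf (-1.03) and Ms4a4c (0.031), and between the Ctrl sites Ube2c (-0.38, doublet score at most 0.15), Stmn1 (0.23, without the pDC of most UMIs) and Hspa1a (3.08, without marked pDCs). Depth limits genes under 20 UMIs, the adjacent tissue, and all genes outside the variable sets.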
